A study of Mus musculus with 6 samples.

Results

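The 10 genes described here make, place and begin to repair the DNA double-strand breaks (DSBs) of meiosis, and they were followed in embryonic mouse ovaries after gestational exposure to panobinostat (PB), an inhibitor of histone deacetylases. The genes are Spo11, Mei1, Mei4, Rec114, Prdm9, Dmc1, Meiob, Spata22, Tex15 and Hfm1. They were chosen by name, and the counts of every transcript that carries one of these gene names in the deposited annotation were summed. They are 10 of the 35974 gene names in the files, their 78 transcripts are 78 of 114412, and all 10 passed the filter on low counts, as did 19435 genes in all.

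RNA was sequenced from pools of ovaries taken at E15.5 from C57Bl6j embryos. The dams of the PB group received 5 mg/kg PB by oral gavage from E6.5 to E15.5, and the control dams received DMSO and water. Each group comprised 3 pools, named control 1 to 3 and PB 1 to 3. According to the sample annotation, PB was given daily and a pool held 4 ovaries, the series text gives 6 to 8 ovaries, and the methods of the study give dosing on alternate days and pools of at least 8 ovaries. The series text also lists the control libraries under exposed mice, whereas their treatment is given as control, and the groups were taken from the sample names and treatments. Whole ovaries were used, so all germ and somatic cells contributed RNA, and fewer germ cells cannot be told apart from less RNA per germ cell.

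In the fetal ovary, germ cells enter meiosis and make programmed DSBs while their chromosomes condense along an axis. SPO11 cleaves the DNA with its partner TOPOVIBL, and MEI1, MEI4 and REC114 are accessory proteins without which breaks do not form. PRDM9 binds DNA through its zinc fingers and methylates histone H3, which sets where breaks are made. The broken ends are resected to single strands, on which the recombinase DMC1 invades the homologous chromosome. MEIOB and SPATA22 bind single-stranded DNA together. TEX15 is needed for the loading of the recombinases in male meiosis, and the helicase HFM1 acts later, on the way to crossovers.

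Sequences are shown for the stretch on which the transcripts of Spo11 differ, because the division of the counts between them is described below. Exon 2 of Spo11 lies in the coding region on the plus strand at chr2:172981979-172982092 (mm10), has 114 bases and adds 38 codons. The form with this exon is known as SPO11 beta and the form without it as SPO11 alpha. The beta form is the one that binds TOPOVIBL and acts when breaks are made, and the alpha form is known to predominate later in male meiosis. The sequences were read 5′ to 3′ from GENCODE transcripts of the mouse (release M21, GRCm38), with 24 bases of exon 1 and of exon 3 in lower case and exon 2 in capitals.
Spo11 with exon 2: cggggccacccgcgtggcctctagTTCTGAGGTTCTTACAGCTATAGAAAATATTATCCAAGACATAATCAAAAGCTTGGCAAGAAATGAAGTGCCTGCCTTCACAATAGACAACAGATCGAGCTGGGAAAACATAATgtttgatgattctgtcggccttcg
Spo11 without exon 2: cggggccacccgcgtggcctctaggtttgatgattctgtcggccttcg

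The RefSeq table of promoter windows (GRCm38.p6) matched 7 of the 10 genes with 8 windows, of which Prdm9 had 2. Because the levels of these genes moved together between the pools, the 250 bases before each start site were searched on both strands for CACGTG, the E-box bound by MAX and USF proteins, and for GCGGGA, a core of E2F sites. CACGTG was found in 1 of the 8 windows, that of Rec114, and in 6.02% of all 32851 windows of the table. GCGGGA was found in 4 of the 8, namely in Dmc1, Spata22 and both windows of Prdm9, and in 16.9% of all windows. No window of these genes held both, and the windows of Mei1, Mei4 and Hfm1 held neither. The windows of Mei1 and Spata22 end at 82082475 and 73329740. They lie inside the spans of the summed transcripts, which begin at 82070057 and 73326537. On the minus strand, the window of Hfm1 (106925891 to 106926140) and 1 of the 2 windows of Prdm9 (15563332 to 15563581) also lie inside such spans. The spans of Hfm1 and Prdm9 end at 106926570 and 15564376. A role of either motif in the levels of these genes was not tested. The windows of the strand exchange genes Dmc1 and Spata22 are shown with the matches to GCGGGA on either strand in capitals. That of Dmc1 lies at chr15:79605110-79605359 on the minus strand and that of Spata22 at chr11:73329491-73329740 on the plus strand.
Dmc1: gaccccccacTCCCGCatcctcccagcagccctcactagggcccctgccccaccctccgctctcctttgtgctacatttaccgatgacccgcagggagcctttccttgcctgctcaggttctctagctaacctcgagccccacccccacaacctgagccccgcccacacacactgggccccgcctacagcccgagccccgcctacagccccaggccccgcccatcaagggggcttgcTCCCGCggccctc
Spata22: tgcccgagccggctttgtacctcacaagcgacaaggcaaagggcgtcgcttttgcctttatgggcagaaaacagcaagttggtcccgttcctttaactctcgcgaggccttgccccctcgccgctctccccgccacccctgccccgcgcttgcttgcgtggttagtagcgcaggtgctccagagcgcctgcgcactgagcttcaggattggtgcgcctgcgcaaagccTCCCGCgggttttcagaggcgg

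The 6 libraries held between 97165644 and 125985399 counts, and a count of 3, taken as the floor, corresponded to at most 0.0321 counts per 1000000 (CPM). All 10 genes lay far above this floor. CPM values are relative to the counts of all named genes in a pool, scaled by TMM, and SDs after ± are taken over 3 pools. PB 2 stood apart from the other PB pools in the genes described here. It also differed from them over all genes compared. Chi-square values per gene were 213 against PB 1 and 246 against PB 3. They were 65.7 between PB 1 and PB 3 and 101 to 174 between control pools. The PB 2 total of 104696262 counts lay within the range of the other pools. Of the 12 germ cell markers, 8 were lowest in PB 2, and their values are given with the results. The markers of pregranulosa cells, the supporting cells of the ovary, summed to between 1692 and 1901 CPM over all 6 pools, and no gene of the 9 had an unadjusted p-value under 0.05.

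No gene of the 10 differed between PB-exposed and control ovaries at the thresholds used, which asked for a 2-fold difference or more and for an FDR no higher than 0.05. All 10 had a higher mean in the PB group, with log2 fold changes from 0.12 for Mei4 to 0.93 for Tex15 and a median of 0.38. The mean hid a split between the PB pools. PB 1 and PB 3 lay above the 3 control pools and PB 2 lay below them in all 10 genes, although for Mei4 the value of PB 1 equalled that of control 1 to 3 digits.

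Spo11, which encodes the subunit that cuts DNA, was measured at 5.82, 7.32 and 6.68 CPM over the control pools against 11.3, 5.06 and 11.3 CPM over the PB pools. The groups overlapped because PB 2 was the lowest of the 6 pools and the other PB pools were the highest. It had a log2 fold change of 0.48 (SE 0.30) and an FDR of 0.888 in edgeR's quasi-likelihood test.

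For the accessory factors of break formation, PB 2 was also the lowest pool and PB 3 the highest. Mei1 was measured at 25.9, 22.2 and 22.9 CPM over the control pools against 35.2, 19.4 and 41.5 CPM over the PB pools. Mei4, which binds REC114 on the chromosome axis, was measured at 5.29, 3.97 and 4.93 CPM and at 5.29, 3.65 and 6.43 CPM. Rec114 was measured at 7.77, 6.70 and 7.39 CPM and at 8.84, 5.72 and 9.29 CPM. The PB pools enclosed the control pools in each of the 3 genes, most widely in Mei1. The log2 fold changes were 0.44 (SE 0.26) for Mei1, 0.12 (SE 0.22) for Mei4 and 0.13 (SE 0.19) for Rec114.

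Prdm9, which marks the sites of breaks, was measured at 33.4, 35.2 and 40.0 CPM over the control pools against 60.0, 29.9 and 54.9 CPM over the PB pools. PB 1 was the highest pool for this gene, and PB 2 the lowest. The log2 fold change was 0.42 (SE 0.25).

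Among the genes of strand exchange, the recombinase gene Dmc1 was measured at 48.3, 42.8 and 47.4 CPM over the control pools against 57.9, 33.3 and 69.3 CPM over the PB pools. Meiob was measured at 18.1, 17.3 and 17.9 CPM over the control pools against 26.2, 13.4 and 27.7 CPM over the PB pools. Spata22, which encodes the partner of MEIOB, was measured at 16.7, 16.8 and 17.7 CPM and at 26.8, 11.7 and 28.0 CPM. The control pools of Meiob and Spata22 lay close together, with coefficients of variation of 2.28% and 3.38%, against 34.9% and 41.1% over the PB pools. The log2 fold changes were 0.21 (SE 0.25) for Dmc1, 0.34 (SE 0.26) for Meiob and 0.38 (SE 0.31) for Spata22.

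Tex15 had the widest spread of the 10 genes in both groups. It was measured at 85.0, 161 and 108 CPM over the control pools against 288, 72.8 and 316 CPM over the PB pools, and had a log2 fold change of 0.93 (SE 0.53, edgeR unadjusted p = 0.126). Its coefficient of variation was 33.1% in control, where control 2 was the highest pool, and 59.0% in PB. Hfm1, the helicase gene, was measured at 62.7, 65.5 and 64.5 CPM over the control pools against 101, 44.9 and 104 CPM over the PB pools. Its control pools were the closest of the 10 genes, with a coefficient of variation of 2.19%, and its log2 fold change was 0.37 (SE 0.30).

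**Figure D1:**
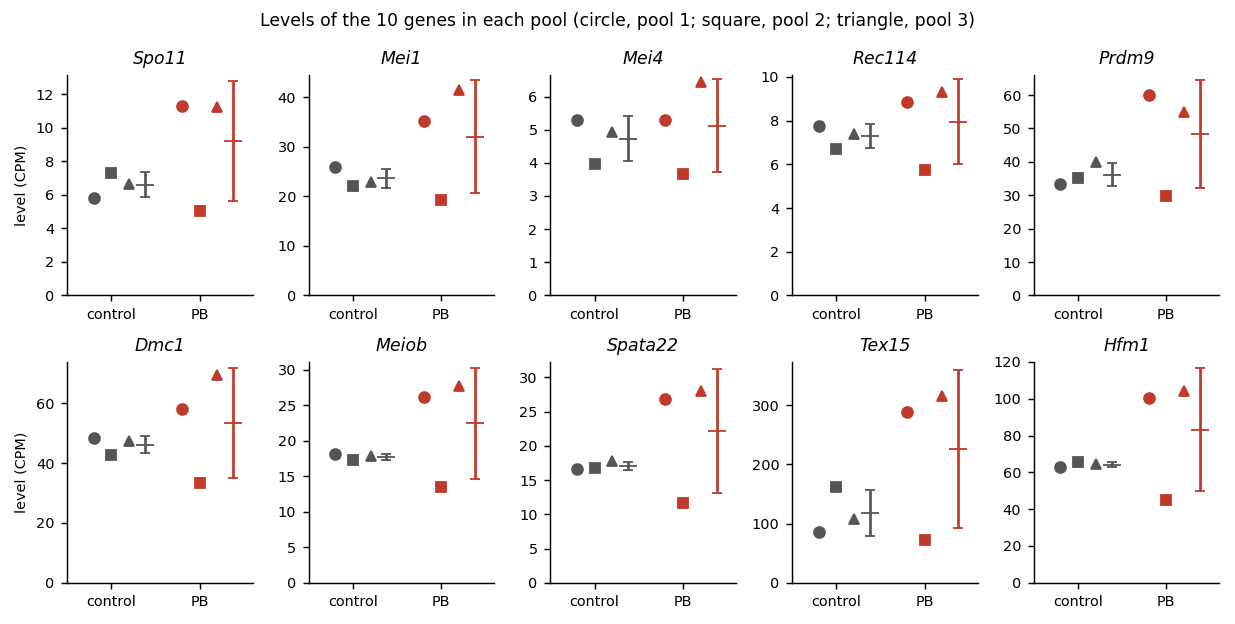
Level of each of the 10 genes (vertical axis, CPM, from 0) in the 3 control pools (grey) and the 3 PB pools (red), with pool 1 as a circle, pool 2 as a square and pool 3 as a triangle, and with the mean and SD of each group beside them. The square of PB 2 is the lowest point of each panel, and PB 1 and PB 3 lie above the control pools except for Mei4, where PB 1 is level with control 1 at 5.29 CPM.

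The FDRs of the 10 genes lay between 0.888 and 0.932 in edgeR's quasi-likelihood test, and no gene had an unadjusted p-value under 0.05. Over all genes tested, 3 of 19435 (0.0154%) were called, 867 (4.46%) had an unadjusted p-value under 0.05, and 50.7% had a log2 fold change above 0 with a median of 0.0020. The 3 pools of one group lay wholly on one side of the other group in none of the 10 genes and in 10.7% of all genes. DESeq2's Wald test also called none of the 10 and gave none an unadjusted p-value under 0.05.

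The split of the PB pools was noticed after the values were seen and is given as a description. PB 2 was the lowest of the 6 pools in 10 of the 10 genes and in 20.6% of all genes tested. PB 1 and PB 3 above and PB 2 below every control pool were found in 10 of the 10 and in 7.24% of all genes. The median coefficient of variation of the 10 genes was 7.85% over the control pools and 35.3% over the PB pools, against 8.03% and 10.4% over all genes tested. It was 14.3% and 25.4% for the 12 germ cell markers. For the other genes listed under break formation, end processing and strand exchange, it was 34.5%, 10.1% and 12.9% over the PB pools. The 10 genes were measured in the same 6 libraries, so their agreement is not that of independent samples.

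Each pool was left out in turn. Because PB 2 was the lowest pool in all 10 genes, leaving it out was bound to raise their fold changes and narrow the PB group, and the values without it are a description and no independent test. The log2 fold changes then lay between 0.31 for Mei4 and 1.35 for Tex15, with a median of 0.67. In edgeR's quasi-likelihood test over the remaining 5 pools, 3 of the 10 genes had an FDR under 0.05. These were Hfm1 at a log2 fold change of 0.67 (SE 0.044, FDR = 0.0173), Spata22 at 0.69 (SE 0.061, FDR = 0.0296) and Meiob at 0.60 (SE 0.060, FDR = 0.0457). All 3 changed by less than 2-fold, so none was called, and 24 of 19821 genes (0.121%) were higher at this FDR. The FDRs of Prdm9, Mei1 and Spo11 were 0.0999, 0.103 and 0.105. Tex15 passed the fold change but not the FDR, with an SE of 0.26 and an FDR of 0.157. An unadjusted p-value under 0.05 was found for 9 of the 10, Mei4 being the exception, and in the higher direction for 7.41% of all genes. In the same fit, 3 of the 27 other genes of the pathway described below had an FDR under 0.05. These were Ankrd31 (FDR = 0.0182), Ccdc36 and Zcwpw1 (FDR = 0.0214 each). Of these 27, 11 had an unadjusted p-value under 0.05 in either direction. Of the 12 germ cell markers, 4 had such a p-value and 1 an FDR under 0.05, Sycp3 (FDR = 0.0214). When PB 3 was left out in place of PB 2, the median of the 10 log2 fold changes was 0.18, and Mei4, Rec114 and Dmc1 lay below 0. Without PB 1 the median was 0.21, and in neither of these fits had any of the 10 an unadjusted p-value under 0.05.

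**Figure D2:**
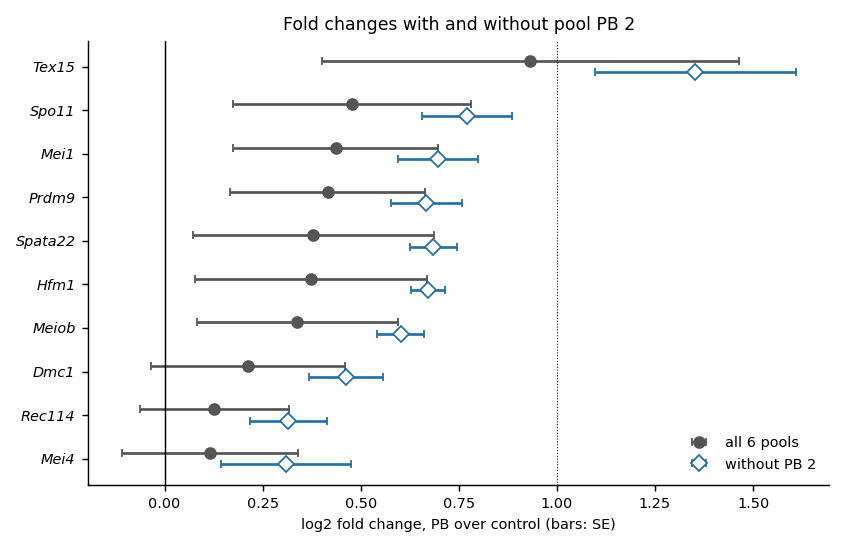
Log2 fold change of PB over control with its SE (horizontal axis) for the 10 genes, from all 6 pools (grey circles) and from the 5 pools without PB 2 (open blue diamonds). A solid line marks no difference and a dotted line a 2-fold higher level. The diamonds lie to the right of the circles with shorter bars in every gene, and Tex15 alone lies past the dotted line, at 1.35.

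Other genes of break formation and strand exchange were taken from a list of 27, all of which passed the filter. None was called, 18 were higher and 9 lower in the PB group, and the median log2 fold change was 0.091. One gene had an unadjusted p-value under 0.05, Rad51ap1, which encodes a DNA-binding partner of the recombinases. It was measured at 17.1, 18.4 and 17.5 CPM over the control pools against 12.6, 15.7 and 10.4 CPM over the PB pools. It was the one gene of the 27 in which the groups did not overlap, against 10.7% of all genes, and 4.46% of all genes had an unadjusted p-value under 0.05, so neither count exceeds the share over all genes. It had a log2 fold change of -0.45 (SE 0.15, edgeR unadjusted p = 0.0192, FDR = 0.888).

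The highest log2 fold changes of the list were those of Rad51ap2 and Ankrd31, both with an FDR of 0.888 in edgeR's test. Rad51ap2, a relative of Rad51ap1 expressed in meiotic cells, was measured at 19.7, 17.1 and 15.7 CPM over the control pools against 32.2, 16.0 and 34.0 CPM over the PB pools, a log2 fold change of 0.65 (SE 0.28). Ankrd31, whose product binds REC114, was measured at 21.9, 22.2 and 21.9 CPM and at 36.4, 17.6 and 37.8 CPM, a log2 fold change of 0.48 (SE 0.27). Both had PB 1 and PB 3 as their highest pools, and PB 2 was below every control pool for Ankrd31 but not for Rad51ap2. Rpa2, a subunit of the general single-strand binding protein of all cells, was measured at 106, 94.2 and 106 CPM over the control pools against 93.0, 88.6 and 95.4 CPM over the PB pools, a log2 fold change of -0.14 (SE 0.063).

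The split of the PB pools was counted in the other genes of the pathway, without a test of a difference between its steps. Over all genes tested, it was found in 7.24%. It was found in 5 of the 6 other genes listed under break formation, that is in all but Cxxc1, which encodes a widely expressed CpG-binding protein. It was also found in 4 of the 6 genes of end processing, Nbn, Mre11a, Rbbp8 and Atm, whose log2 fold changes lay between 0.036 and 0.22. Of the 15 other genes of strand exchange, 1 had it, the gene of the BRCA2-associated factor Brme1 (named 4930432K21Rik in the files). Among those listed under break formation were Ccdc36, which encodes the axis protein IHO1, at a log2 fold change of 0.44 (SE 0.28), and Zcwpw1, at 0.34 (SE 0.24). Zcwpw1 was listed there as a reader of the marks that PRDM9 writes, and not as a gene needed to make breaks.

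The germ cell markers were compared because the 10 genes are expressed in germ cells. The RNA helicase gene Ddx4 was measured at 122, 89.7 and 130 CPM over the control pools against 124, 77.7 and 132 CPM over the PB pools. The RNA-binding protein gene Dazl was measured at 298, 211 and 292 CPM and at 304, 191 and 304 CPM. Both were low in control 2 as well as in PB 2 and about equal in the other 4 pools, so that control 2 and PB 2 differed from the rest in these genes. In the 10 genes of break formation and strand exchange, control 2 was the highest control pool for Spo11, Tex15 and Hfm1, lay between the others for Prdm9 and Spata22 and was the lowest for the other 5.

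Sycp3, which encodes a protein of the meiotic axis, also had PB 1 and PB 3 as its highest pools and PB 2 as its lowest, with 118, 111 and 116 CPM over the control pools against 172, 81.2 and 184 CPM over the PB pools. Mael, Tex101 and Figla also had PB 1 and PB 3 above and PB 2 below every control pool, with log2 fold changes between 0.25 and 0.34, as had Dazl by a narrow margin. The pluripotency gene Pou5f1 was measured at 30.6, 18.3 and 30.7 CPM over the control pools against 17.0, 17.6 and 18.6 CPM over the PB pools, so that the PB pools lay at the level of control 2. Dppa3, a gene of early germ cells, had the same arrangement, with 20.1, 11.9 and 21.6 CPM in control and 12.2, 12.5 and 12.8 CPM in PB. Their log2 fold changes were -0.58 (SE 0.20, edgeR unadjusted p = 0.0241, FDR = 0.888) and -0.52 (SE 0.21, unadjusted p = 0.0476, FDR = 0.888). The meiotic entry gene Stra8, the cohesin gene Rec8, Nanos3 and Sohlh1 had log2 fold changes between -0.32 and -0.068, and no germ cell marker of the 12 was called.

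Set against Ddx4 and Dazl, the summed CPM of the 9 genes other than Tex15 amounted to 0.533, 0.725 and 0.543 of the summed CPM of these markers over the control pools against 0.776, 0.621 and 0.809 over the PB pools. This ratio was highest in PB 3 and PB 1, and PB 2 lay between the control pools. Its mean was 0.600 ± 0.108 in control and 0.735 ± 0.101 in PB. Of the ratios of each gene to Ddx4, that of Mei1 alone had every PB pool above every control pool, by a narrow margin. Per 100 CPM of Ddx4, Mei1 was at 28.4, 24.9 and 31.5 CPM over the PB pools against 21.2, 24.7 and 17.6 CPM over the control pools. The share of all genes with such a ratio was not computed. In CPM, the groups did not overlap in 10.7% of all genes, which is near 1 of 10. When library sizes were set by the counts of the germ cell markers, the 10 log2 fold changes were again all above 0, from 0.072 to 0.71, and none had an unadjusted p-value under 0.05.

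**Figure D3:**
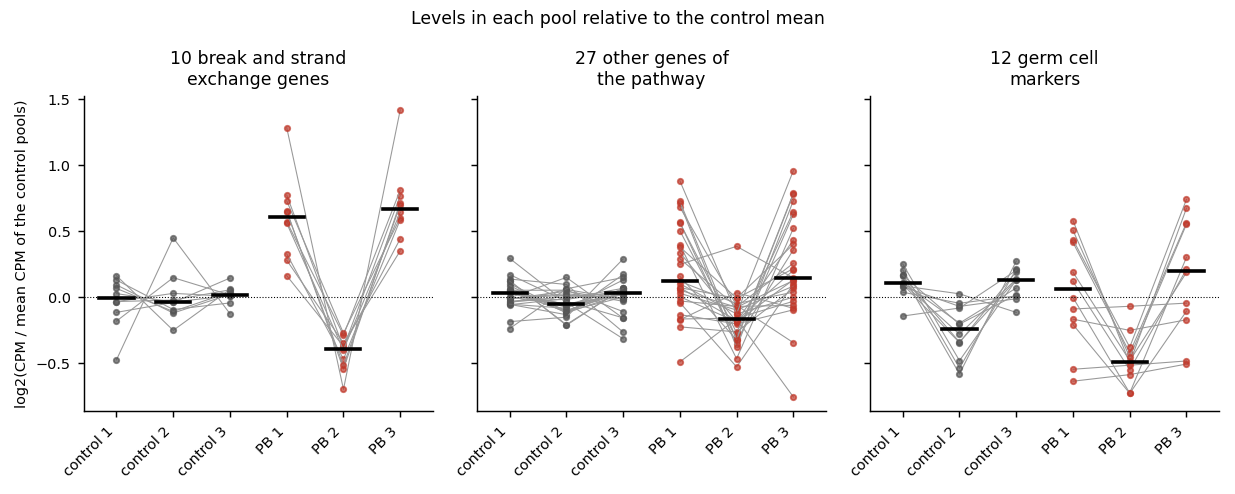
Log2 ratio of the CPM of each gene to its mean over the control pools (vertical axis) in each pool (horizontal axis) for the 10 genes, the 27 other genes of the pathway and the 12 germ cell markers. Points are genes, thin lines join the points of 1 gene within a group, and black bars are medians. The medians of the 10 genes are 0.61, -0.39 and 0.67 in PB 1, PB 2 and PB 3 and within 0.04 of 0 in the control pools, while those of the germ cell markers are -0.24 in control 2 and -0.49 in PB 2.

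Of the 41 tested markers of other cell types, 2 had PB 1 and PB 3 above and PB 2 below every control pool, against 7.24% of all genes. These were Ptgds of the Sertoli list and Kdr of the endothelial list, and no marker of the 41 was called. The summed markers of Sertoli cells, the supporting cells of the testis, lay between 30.2 and 41.5 CPM, and Dmrt1, which germ cells also express, had a log2 fold change of -0.52 (SE 0.20, edgeR unadjusted p = 0.0360, FDR = 0.888). The markers of red blood cells summed to 23342, 31753 and 14792 CPM over the control pools against 19965, 18134 and 18583 CPM over the PB pools, and the globin gene Hba-a2 had a log2 fold change of -0.77 (SE 0.28, unadjusted p = 0.0324, FDR = 0.888). The markers of endothelium summed to between 306 and 351 CPM, with Tie1 at a log2 fold change of -0.24 (SE 0.092, unadjusted p = 0.0348, FDR = 0.888). Of the mesonephros markers, Emx2 held most of the sum, at 124 to 138 CPM. Cdh16 was at 2.72, 3.34 and 14.8 CPM over the control pools against 2.93, 3.87 and 1.90 CPM over the PB pools. Pax2 and Lhx1 were also highest in control 3, at 2.50 and 1.34 CPM, whereas Pax8 was highest in PB 2, at 14.5 CPM. The summed markers lay between 138 and 159 CPM for the mesonephros, between 43.0 and 53.1 CPM for macrophages and between 32.1 and 61.9 CPM for steroidogenic cells. The adrenal genes Cyp11b1 and Cyp21a1 of the last list were too low to be tested. The part of the pool makeup in the split of the 10 genes was not tested beyond these values.

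Among all other genes tested, those whose levels were most like the mean profile of the 10 genes over the 6 pools were Ccnb3, Pigp, Trim23, Topbp1 and Vps29, with Pearson correlations between 0.997 and 0.998. Ccnb3 encodes a cyclin of oocyte meiosis and was measured at 15.88, 15.61 and 15.46 CPM over the control pools against 25.0, 11.4 and 26.9 CPM over the PB pools. Topbp1, which encodes an activator of the ATR checkpoint kinase, had a log2 fold change of 0.091. These correlations describe 6 libraries that all genes share, and 406 of the 19435 genes (2.09%) had one of at least 0.95. Among the 10 genes, the correlation of each with the mean of the other 9 was highest for Meiob and Hfm1, at 0.996 each, and lowest for Mei4, at 0.814.

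Levels per length, in CPM per kilobase of exon, ordered the 10 genes from Dmc1 to Mei4. In the control pools, Dmc1 was at 20.9 ± 1.33, Hfm1 at 12.7 ± 0.419, Tex15 at 11.6 ± 4.56, Spata22 at 10.9 ± 1.96, Prdm9 at 10.4 ± 0.793 and Meiob at 9.96 ± 0.347. Below them, Rec114 was at 8.79 ± 0.886, Mei1 at 5.96 ± 0.449, Spo11 at 3.96 ± 0.426 and Mei4 at 1.56 ± 0.219. Dmc1, the gene with the highest level, was thus above all others, and the control pools of Hfm1, Tex15, Spata22, Prdm9 and Meiob overlapped between neighbours in this order. From Meiob downwards, the pools of neighbours did not overlap. Over the PB pools, Dmc1 was at 24.8 ± 8.63, Tex15 at 23.1 ± 13.4 and Mei4 at 1.68 ± 0.449. Spo11, the catalytic gene, was thus among the lowest in both groups. This order depended on how transcripts were counted. In control, 82.6% of the Rec114 counts lay in assembled transcripts without a matching RefSeq intron chain. With known transcripts alone, Rec114 was at 1.25, Prdm9 at 5.90 and Tex15 at 6.61, so that Prdm9 lay just below Mei1. When sums were divided by the length of the longest transcript, Spata22 was at 6.74 and Spo11 at 2.54.

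The counts of a gene were divided among its transcripts by StringTie, and the sums were steadier than the division. Of the 78 transcripts, 12 had no count in any pool, and 17 had no count in at least 1 pool but at least 100 counts in another. Mei1 had nearly all counts in a single transcript, NM_028897.3, with 93.9% to 99.4% in every pool. In Dmc1, NM_010059.3 held 94.2% to 97.9% of the counts in 5 pools and 18.0% in PB 1. In that pool, XM_006520408.3 had 2325 counts, against 0 in every other pool, while the Dmc1 sum of PB 1 lay within the range of the other PB pools.

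The other genes of the set showed further divisions of this kind. The most abundant Prdm9 transcript, MSTRG.7504.2, held 53.1% to 66.8% of the counts in 5 pools and had 0 counts in control 3, where NM_144809.2 had 2516 counts. The RefSeq transcript NM_001045531.1 of Spata22 held between 28.0% and 84.7%, and the rest was counted in a single assembled transcript. The most abundant transcripts of Tex15 (XM_006508977.2), Hfm1 (XM_006535015.1), Meiob (NM_029197.1), Mei4 (NM_175213.3) and Rec114 (MSTRG.18787.2) held 27.1%, 26.9%, 54.4%, 94.8% and 68.9% of the counts over all pools. With known transcripts alone, the gene sums of Prdm9 and Spata22 had log2 fold changes of -0.068 and -0.068 in place of 0.42 and 0.38.

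**Figure D4:**
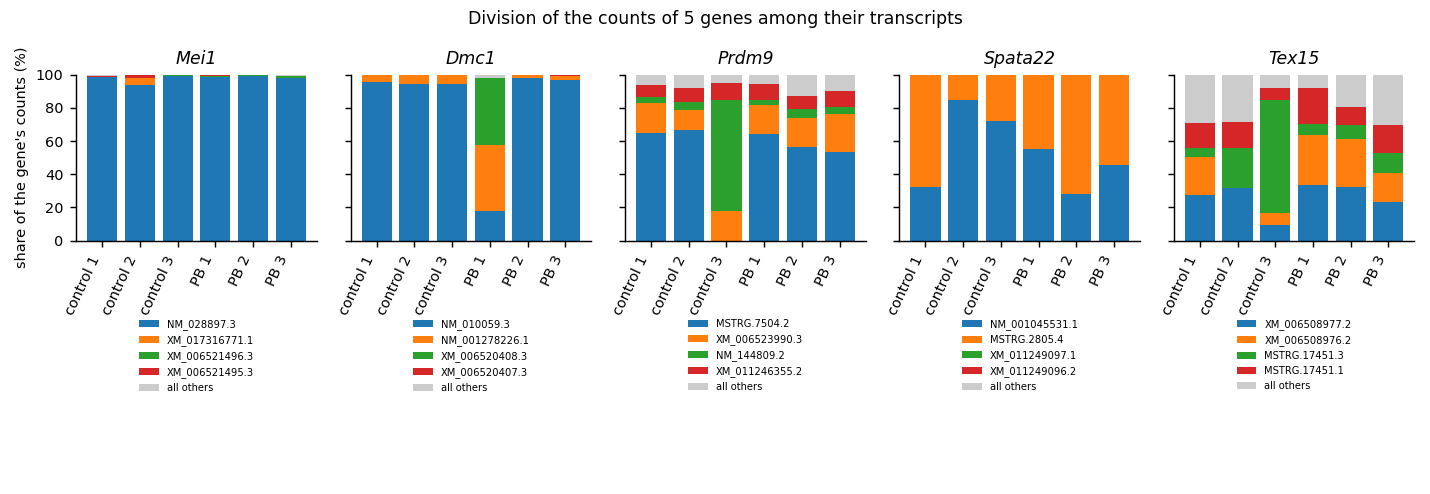
Share of the counts of Mei1, Dmc1, Prdm9, Spata22 and Tex15 (vertical axis, percent) held by each transcript in each pool, with the 4 transcripts that hold most of each gene in colour and all others in grey. The bar of Mei1 is nearly 1 colour in every pool, while Dmc1 in PB 1 and Prdm9 in control 3 are divided unlike the same genes in the other 5 pools.

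Tested one by one, 40 of the 78 transcripts passed the filter, 32 of them with a higher and 8 with a lower mean in PB, and edgeR called none. Over all transcripts, edgeR called 17 of 51227 (0.0332%), whereas DESeq2 called 1169 of 72572 (1.61%) and 1 of the 53 transcripts of these genes that it tested. This was XM_011242106.2 of Tex15, with 3, 3 and 5 counts over the control pools against 49, 18 and 95 counts over the PB pools. It held 0.157% of the counts of Tex15, and its groups did not overlap. Its log2 fold change was 3.74 (SE 0.75, edgeR unadjusted p = 0.00380, FDR = 0.557), and its DESeq2 FDR was 0.00159. The second transcript with an unadjusted edgeR p-value under 0.05 was NM_001083960.1 of Spo11, which lacks exon 2. It was counted 116, 159 and 136 times over the control pools against 333, 171 and 507 times over the PB pools, a log2 fold change of 1.24 (SE 0.42, edgeR unadjusted p = 0.0319, FDR = 1.00).

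This transcript differs from NM_012046.2, the most abundant one of Spo11, by exon 2 alone, the stretch shown in capitals above. The Spo11 counts were therefore split into the 3 transcripts with exon 2 and the 7 without it, a comparison chosen after these values were seen. Among the 7 is NM_001083960.1, the transcript that prompted the split. The next most abundant of the 7, NM_001305434.1, had 140, 227 and 162 counts over the control pools against 321, 115 and 198 over the PB pools. Its log2 fold change was 0.25 (SE 0.47). The share with exon 2 was 54.2% (95% Wilson interval 50.1 to 58.2%), 47.1% (43.8 to 50.5%) and 50.7% (46.8 to 54.6%) in the control pools. It was 33.9% (31.2 to 36.8%), 44.1% (39.9 to 48.4%) and 34.5% (32.0 to 37.1%) in the PB pools. Every PB pool lay below every control pool, but the interval of PB 2 overlapped that of control 2. The means were 50.7% ± 3.53 and 37.5% ± 5.71 (SD, n = 3), a difference of -13.2 percentage points with a two-sided p of 0.1 in an exact permutation test, the smallest p that 3 against 3 pools can give. NM_001083960.1 had prompted the split by its p-value and had a higher mean in PB, so a lower share in PB was partly built in. The separation of the pools and the permutation test are thus a description and no independent test. The shares without this transcript were not compared. The intervals cover counting error alone. They treat counts derived from the coverage of paired reads as independent and may be too narrow even for that. The counts also rest on the division by StringTie, which differed between pools in other genes of the set.

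The forms of Spo11 did not move alike between the pools. Transcripts with exon 2 were at 3.15, 3.45 and 3.39 CPM over the control pools against 3.83, 2.23 and 3.89 CPM over the PB pools, a ratio of the means of 0.996 (exact permutation test, two-sided p = 1). Transcripts without exon 2 were at 2.67, 3.87 and 3.29 CPM over the control pools against 7.46, 2.83 and 7.37 CPM over the PB pools, a ratio of the means of 1.80 (exact permutation test, two-sided p = 0.3). PB 1 and PB 3 thus held more of the form without exon 2 than any control pool, and PB 2 lay within the control range. When NM_012046.2 and NM_001083960.1 alone were compared, the share with exon 2 was 72.6%, 67.4% and 69.5% over the control pools against 53.2%, 56.6% and 47.0% over the PB pools. This pair holds the transcript that prompted the split, so its lower share in PB is no independent support.

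**Figure D5:**
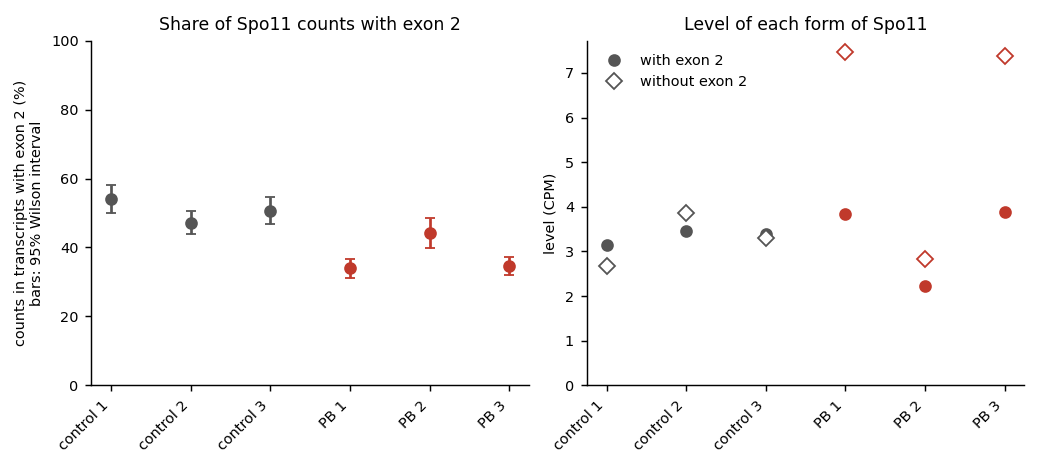
Left, share of the Spo11 counts in transcripts with exon 2 (vertical axis, percent) in each pool, with 95% Wilson intervals. Right, level of the transcripts with exon 2 (filled circles) and without it (open diamonds) in CPM, in control (grey) and PB (red) pools. The shares of PB 1 and PB 3 lie near 34%, and their open diamonds, at 7.46 and 7.37 CPM, are the highest of the 6 pools.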

How the data were processed

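Strand-specific RNA-seq libraries of 3 control and 3 PB pools were compared, grouped by the sample names. Reads had been mapped by the authors to mm10 (HISAT2 2.1.0) and merged into transcripts guided by RefSeq (StringTie 1.3.5), and they deposited raw whole-number counts per transcript, derived by prepDE from coverage, without normalization. Positions (mm10) and gene names came from the deposited annotation and comparison table. The authors' DESeq2 1.30.0 fold changes and p-values and 6 columns of normalized values in that table were not used.

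Counts were summed per gene name. Unnamed transcripts (3.05% to 4.49% of the counts of a pool) and 3 transcripts without an entry in the table were left out of these sums. Control and PB were compared with edgeR 4.0.16 (R 4.3.3, limma 3.58.1, data.table version 1.17.8) by the quasi-likelihood test, with TMM scaling and filterByExpr (minimum count 10, minimum total 15). FDRs follow Benjamini and Hochberg over all genes tested, and the SE is the size of the log2 fold change divided by the square root of F. The biological coefficient of variation was 20.9% for genes and 98.4% for transcripts. Single values were compared with exact permutation tests. Levels per length divided the counts of each transcript by its exon length. The script was checked on simulated counts. No same-group pools were identical, with chi-square values per gene of at least 65.7 between pools.

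Alternatives were DESeq2's size factors, DESeq2 1.42.0, no filter, a stricter filter, a replicate block, known transcripts alone, StringTie loci, scaling on germ cell markers and leaving out each pool. The alternatives for exon 2 of Spo11 were added after its values were seen. The genes named are the 10 genes, those of the other 27 with an unadjusted p-value under 0.05, without overlap or with the 2 highest and lowest fold changes, the markers by the same p-value, and the 5 genes most alike. Others were named after their values were seen. The genes and lists were chosen with earlier results of these data known.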

Additional observations from a re-analysis of the deposited data

How the results depend on the processing

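No gene of the 10, of the other 27 or of the germ cell markers was called under any alternative run, including the replicate block and each fit without 1 pool (0 to 0 calls). All 10 genes remained above a log2 fold change of 0 in each alternative but 2. With known transcripts alone 8 did, and the values of Prdm9 and Spata22 were -0.068 (SE 0.56) and -0.068 (SE 0.63). Hfm1 was then at 0.16 in place of 0.37. Tex15 was higher, at 1.36 (SE 0.61) in place of 0.93, as was Rec114, at 0.31 in place of 0.13. Without PB 3, 7 genes remained above 0, so the count ranged from 7 to 10 over the fits without 1 pool. Mei4, Rec114 and Dmc1 were at -0.081, -0.00058 and -0.017 without PB 3, against 0.31, 0.32 and 0.46 without PB 2. With the replicate block, the log2 fold changes lay between 0.088 and 0.78 and 0 genes were called. The pool numbers were not shown to pair the samples, as the deviations of same-numbered pools correlated at 0.093, 0.15 and -0.018. For transcripts of the 10 genes, the DESeq2 Wald test gave 1 call, and DESeq2's size factors, no filter, the stricter filter, the replicate block and each fit without 1 pool gave 0. Known transcripts, loci and germ cell scaling were run on genes only. With DESeq2, 11 genes were called over all 26583 with a p-value, in place of 3. Without PB 2, the median log2 fold change of the 10 genes was 0.67 in place of 0.38.

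The control levels per length moved by more than the spread between pools under 2 alternatives. Divided by the longest transcript, Spo11 was at 2.54, Rec114 at 6.54, Prdm9 at 8.52, Meiob at 9.14, Spata22 at 6.74 and Hfm1 at 11.8. With known transcripts alone, Rec114 was at 1.25, Prdm9 at 5.90, Spata22 at 8.45, Tex15 at 6.61 and Hfm1 at 10.8. The difference in the share of Spo11 counts with exon 2 was -17.6 percentage points for the pair of transcripts that differ by that exon and -12.8 after division by length. Both include NM_001083960.1, the transcript that prompted the split, so neither is an independent check of the difference. The causes were not tested. The 10 genes lay well above the floor of 3 counts, but 3 pools a group cannot give an exact p under 0.1.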
